A study of Gossypium hirsutum with 7 samples.

Results

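E6, CelA1, Pel, H6L and Rac13 are 5 cotton genes that mark later stages of fibre growth, and their levels were read in ovules on the day of flowering, when fibres only begin to emerge. They were chosen as named fibre-stage genes, and all 7 of their probe sets are described, out of 23977 probe sets tested. E6 and H6L have 1 probe set each, both of a type (_s_at) that can read related transcripts, Rac13 has 1, and CelA1 and Pel have 2 each.

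Whole ovules of Gossypium hirsutum, upland cotton, were collected at 0 days post anthesis (dpa) and their total RNA was labelled and read on Affymetrix cotton arrays, with 1 colour each. The groups were GhHD-1 over-expression plants (3 arrays), GhHD-1 silenced plants (2 arrays) and wild-type plants (2 arrays), which the labels call biological replicates. GhHD-1 is a homeodomain transcription factor gene, and the study asked which genes it may regulate at fibre initiation. The sources used here do not give the promoter or construct, nor whether a transgenic group is a single line. All groups were grown in a glasshouse, and ovules to be compared were taken on a common date. The ovules hold fibre initials among many other cells, so fewer cells of a type and less RNA per cell cannot be told apart.

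A cotton fibre is a single cell of the ovule surface. It initiates around flowering, elongates by loosening and extending a primary wall rich in pectin, and then lays down a secondary wall that is almost pure cellulose. E6 encodes an abundant fibre protein of unknown function typical of elongating fibres. Pel encodes a pectate lyase, which cuts pectin in the primary wall. CelA1 encodes a cellulose synthase subunit of secondary wall synthesis, H6L is named after the proline-rich fibre wall protein H6, and Rac13 encodes a small GTPase known from fibres entering secondary wall synthesis.

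The arrays were alike in their distributions, with medians between 7.61 and 7.72 log2 units. The 5th percentile of the tested probe sets lay between 3.50 and 3.67 and the 25th between 5.59 and 5.66. A probe set is called on the floor of an array when below the 5th percentile and near the floor when between the 5th and the 25th. No detection call was used, so a position near the floor does not show that a transcript is absent. The 52 reporter controls, probe sets for foreign genes whose names start with RPTR, gave a second view of the floor, with medians between 3.66 and 4.15. Among them the control RPTR-Ghi-U57609-2_s_at gave 11.88 in wild-type replicate 2 but 5.09 in the other wild-type array, so that pair differed at a probe set for a foreign gene. The control RPTR-Ghi-A06498-1_at gave 9.99 and 10.15 on the silenced arrays and 4.08 to 4.66 on the others. Not all 52 controls were thus at the floor on every array. All 5 annotated MADS-box probe sets, of a floral and ovule regulator family, had means between 9.24 and 13.58, above the 25th percentile on all arrays. Other ovule identity genes of the marker list had no named probe set.

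E6 stood well above the floor in every genotype, and 5 of the 7 probe sets lay near it on all 7 arrays. Those 5 were the dimmer CelA1 probe set, both Pel probe sets, H6L and Rac13. The brighter CelA1 probe set lay between the 30.4th and the 43.7th percentile, 2.42 to 2.94 log2 units above the reporter median. No member fell below the 5th percentile on any array. By definition 25% of the tested probe sets of each array lie on or near the floor, and the count of 5 depended on that bound. Below the 10th percentile, Rac13 lay on all 7 arrays, the dimmer CelA1 set on 5 and the more variable Pel set on 3. The steadier Pel set and H6L lay below it on 0 arrays.

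**Figure D1:**
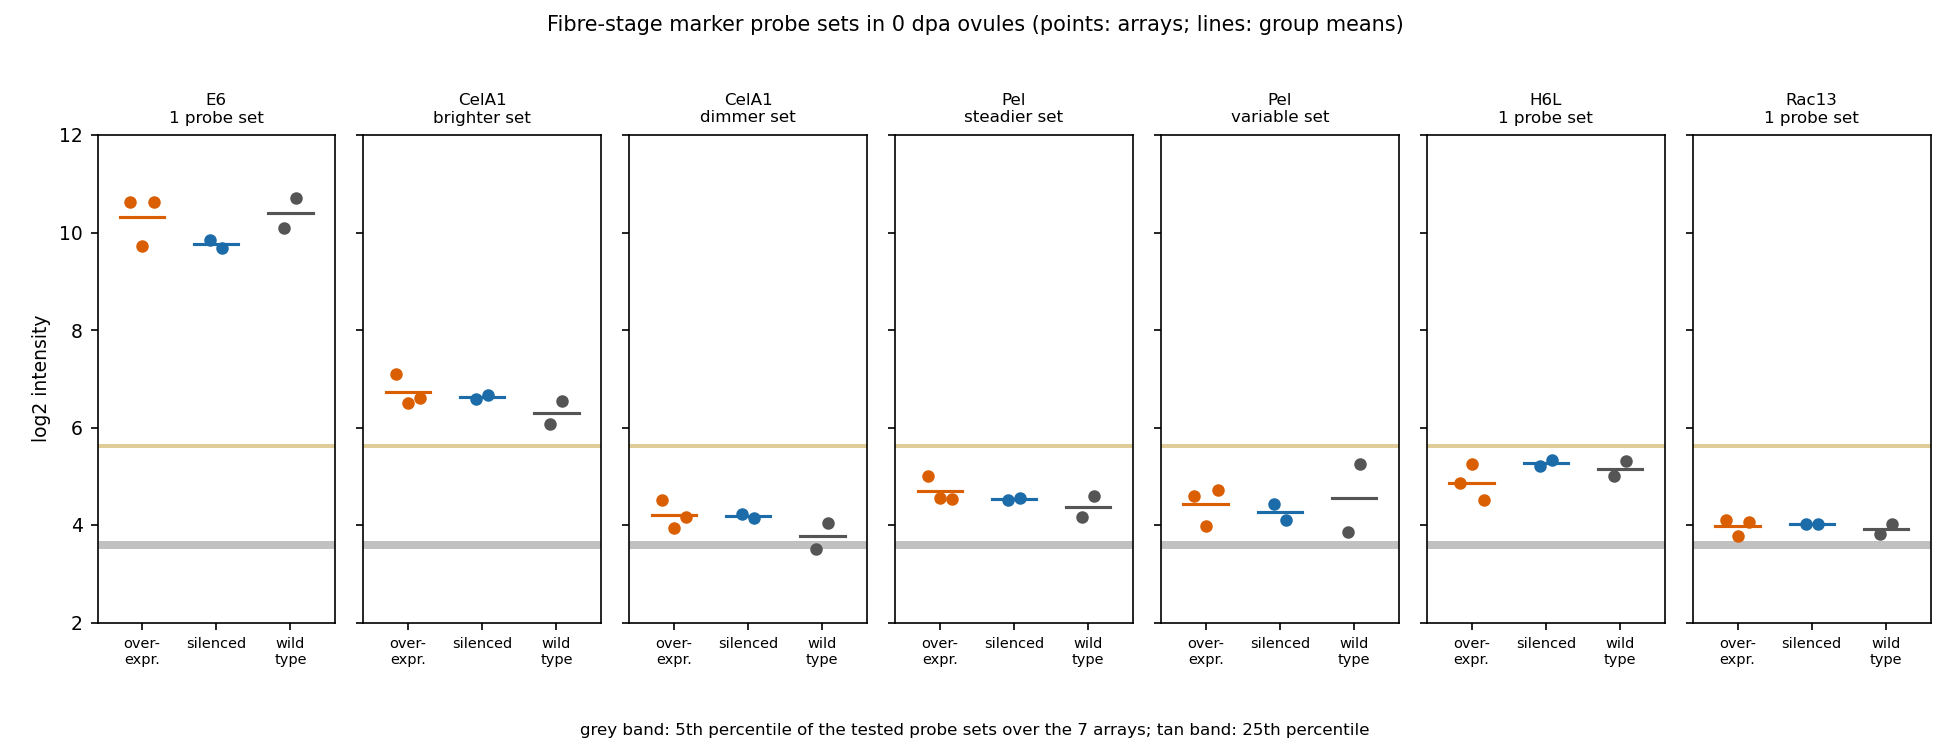
Log2 intensity (vertical axis) of the 7 probe sets in over-expression, silenced and wild-type ovules. Points are arrays, horizontal lines are group means, and the bands give the range over arrays of the 5th and 25th percentiles of all tested probe sets. E6 lies between 9.69 and 10.70, the brighter CelA1 probe set between 6.08 and 7.09, and the other 5 probe sets below the 25th percentile.

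For E6 (locus LOC107913945), the log2 intensity was 10.62, 9.73 and 10.62 in over-expression ovules, 9.85 and 9.69 in silenced ovules, and 10.09 and 10.70 in wild-type ovules. These values placed it between the 75.6th and the 88.4th percentile of its array and at least 5.57 log2 units above the reporter median. Both silenced arrays read below both wild-type arrays, while over-expression replicate 2 read as low as the silenced arrays and the other two over-expression arrays read within the wild-type range. From the highest mean down, the order was wild type (10.40 ± 0.44, SD, n = 2), over-expression (10.32 ± 0.52, SD, n = 3) and silenced (9.77 ± 0.11, SD, n = 2), and each neighbouring pair in that order overlapped.

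The silenced minus wild-type difference of E6 was -0.62 (SE 0.34, 95% interval -1.43 to 0.18, limma adjusted p = 0.440), or 0.649-fold. Over-expression minus wild type gave -0.07 (SE 0.31, interval -0.81 to 0.66, adjusted p = 0.937). Over-expression minus silenced gave 0.55 (SE 0.31, interval -0.18 to 1.29, adjusted p = 0.547). None passed the threshold of 0.05, and a 2-fold decrease with silencing lies inside the first interval. The size depended on single arrays. Silenced minus wild type was -0.93 with wild-type replicate 1 left out and -0.32 with replicate 2 left out, over-expression minus wild type was -0.38 and 0.24 without these arrays, and over-expression minus silenced was 0.85 without over-expression replicate 2.

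CelA1 (locus LOC107909647) was read by probe sets of unlike height. At the brighter CelA1 set the over-expression arrays read 7.09, 6.50 and 6.61, the silenced arrays 6.59 and 6.66, and the wild-type arrays 6.08 and 6.53. This is 0.49 to 1.43 log2 units above the 25th percentile of each array. Both silenced arrays were above both wild-type arrays, and the over-expression arrays spanned the silenced ones.

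At the dimmer CelA1 set, over-expression arrays read 4.51, 3.94 and 4.17, silenced arrays 4.22 and 4.13, and wild-type arrays 3.51 and 4.04. Wild-type replicate 1 lay only 0.0079 above the 5th percentile of its array, and 5 of the 7 arrays were below the 10th percentile. The set stayed within -0.15 to 0.36 log2 units of the reporter median, that is, at the level of probe sets for foreign genes. Here too the silenced arrays were above the wild-type arrays and inside the over-expression range. Both CelA1 sets ordered the genotypes alike, over-expression, silenced, wild type, with no overlap between silenced and wild type and overlap between over-expression and silenced.

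For the brighter CelA1 set, silenced minus wild type was 0.32 (SE 0.23, interval -0.23 to 0.87, limma adjusted p = 0.547) and over-expression minus wild type 0.42 (SE 0.21, interval -0.07 to 0.92, adjusted p = 0.507). For the dimmer set these were 0.40 (SE 0.24, interval -0.15 to 0.96, adjusted p = 0.465) and 0.43 (SE 0.21, interval -0.08 to 0.94, adjusted p = 0.507). Over-expression minus silenced was 0.11 (interval -0.39 to 0.60) at the brighter and 0.03 (interval -0.48 to 0.53) at the dimmer set. No CelA1 difference passed, and the size against wild type depended on which wild-type array was used. Without wild-type replicate 1, silenced minus wild type was 0.09 at the brighter and 0.14 at the dimmer set, and over-expression minus wild type was 0.20 at the brighter and 0.16 at the dimmer set. Without wild-type replicate 2, the first difference was 0.55 and 0.67, and the second 0.65 and 0.70.

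Both CelA1 sets kept a nearly fixed distance from each other, 2.37 to 2.58 log2 units, on every array. Pearson's r between them over the 7 arrays was 0.967 (exact permutation p = 0.0036, adjusted p = 0.0071 over the 2 relations computed) and Spearman's rho was 0.857 (exact permutation p = 0.024, adjusted p = 0.048). Without wild-type replicate 1 and over-expression replicate 1, the arrays farthest from the median, r was 0.756. After each group mean was taken off, r was 0.955.

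The reporter median moved with CelA1. It was 4.15, 3.93 and 4.03 on the over-expression arrays, 4.04 and 4.12 on the silenced arrays, and 3.66 and 3.96 on the wild-type arrays. Its r was 0.914 with the brighter CelA1 set (exact permutation p = 7.9e-04, adjusted p = 0.0056 over 7 relations; rho 0.964, adjusted p = 0.019) and 0.948 with the dimmer set (exact permutation p = 0.0018, adjusted p = 0.0062; rho 0.893, adjusted p = 0.043). Without wild-type replicate 1 and over-expression replicate 1, the r values were 0.993 and 0.740, and after group means were taken off 0.920 and 0.927. With each array centred on its reporter median, a setting chosen after seeing the data, silenced minus wild type was -0.89 for E6. It was 0.05 at the brighter and 0.14 at the dimmer CelA1 set, and over-expression minus wild type was 0.20 and 0.21. Rac13 (r = 0.789, exact permutation p = 0.024, adjusted p = 0.056) and the steadier Pel set (r = 0.822, exact permutation p = 0.060, adjusted p = 0.105, r = -0.347 without those arrays) did not pass, and r was 0.392 for the more variable Pel set and 0.124 for E6. After group means were taken off, however, r was 0.791 for E6, 0.890 and 0.840 for the steadier and the more variable Pel set, and 0.854 for Rac13. No p or share over all probe sets was computed for these values. They do not hold within each genotype. From silenced replicate 1 to replicate 2 the reporter median and the steadier Pel set rose, E6 and the more variable Pel set fell, and Rac13 stayed equal. The part of the floor level in the CelA1 values was not tested further. Among all tested probe sets 2.57% had an r above 0.9 with the reporter median, and 6.24% of the lowest 25% by mean level did.

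**Figure D2:**
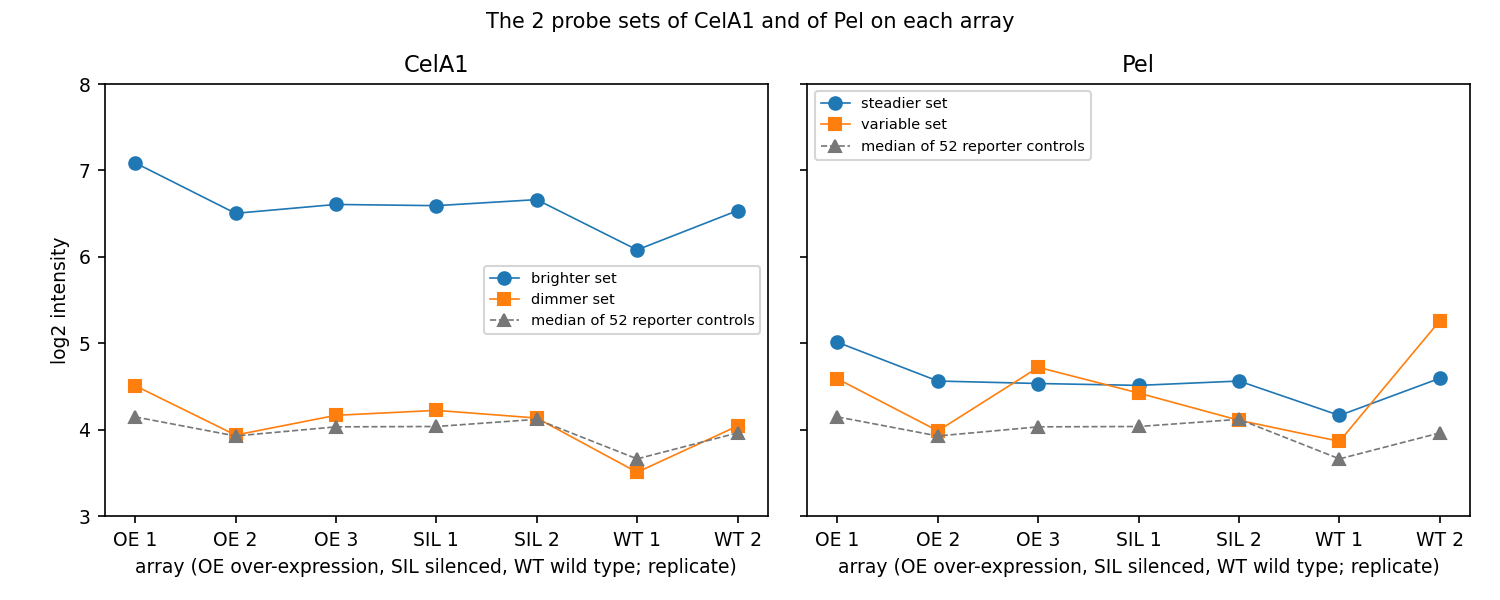
Log2 intensity on each array for both probe sets of CelA1 (left) and of Pel (right), with the median of the 52 reporter controls as a dashed line; arrays are ordered over-expression, silenced, wild type. The CelA1 sets run parallel to each other and to the controls, while the gap between the Pel sets, steadier minus more variable, runs from -0.67 on wild-type replicate 2 to 0.58 on over-expression replicate 2.

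Pel (locus LOC107949717) lay near the floor at both probe sets, of which one varied less between replicates (pooled within-group SD 0.24) than the other (0.58). Both were above the median of 0.17 over all tested probe sets. At the steadier Pel set over-expression arrays read 5.01, 4.56 and 4.53, silenced arrays 4.51 and 4.56, and wild-type arrays 4.16 and 4.59. These were 0.44 to 0.86 log2 units above the reporter median, and the values of the 3 genotypes overlapped. The order of means was over-expression (4.70 ± 0.27), silenced (4.54 ± 0.04) and wild type (4.38 ± 0.30).

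At the more variable Pel set, over-expression arrays read 4.59, 3.99 and 4.72, silenced arrays 4.42 and 4.11, and wild-type arrays 3.86 and 5.26. These were within -0.012 to 1.30 log2 units of the reporter median, and the wild-type arrays were the lowest and the highest of all 7. Their gap of 1.40 was wider than that of 98.3% of the tested probe sets, whose median wild-type gap was 0.23. The order of means was wild type (4.56 ± 0.99), over-expression (4.43 ± 0.39) and silenced (4.27 ± 0.22), the reverse of the other Pel set for silenced and over-expression against wild type.

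Silenced minus wild type was 0.16 (SE 0.21, interval -0.34 to 0.66) at the steadier Pel set and -0.30 (SE 0.45, interval -1.36 to 0.76) at the more variable one, with limma adjusted p of 0.747 and 0.777. Over-expression minus wild type was 0.32 (SE 0.19, interval -0.13 to 0.78) and -0.13 (SE 0.41, interval -1.10 to 0.84), with adjusted p of 0.546 and 0.910. Over-expression minus silenced was 0.17 at both sets, with adjusted p of 0.804 and 0.920. At the steadier set, over-expression minus wild type was 0.11 with wild-type replicate 1 left out and 0.54 with replicate 2 left out. At the more variable set the sign depended on the wild-type array used. Without wild-type replicate 2, silenced minus wild type was 0.40 and over-expression minus wild type 0.57, and without wild-type replicate 1 they were -0.996 and -0.83. The Pel sets were weakly related over the 7 arrays (r = 0.437, exact permutation p = 0.29, rho = 0.523, exact permutation p = 0.24, adjusted p also 0.29 and 0.24; r = 0.343 without wild-type replicate 1 and over-expression replicate 1).

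For H6L (locus LOC107908860), over-expression arrays read 4.85, 5.24 and 4.52, silenced arrays 5.22 and 5.34, and wild-type arrays 5.002 and 5.314. It lay between the 13.2th and the 21.5th percentile and 0.49 to 1.35 log2 units above the reporter median. Over-expression replicate 2 sat with the silenced and wild-type arrays, and the other two over-expression arrays were the lowest of the 7. From the highest mean down, silenced (5.28 ± 0.08), wild type (5.16 ± 0.22) and over-expression (4.87 ± 0.36) each overlapped with the next. Over-expression minus wild type was -0.29 (SE 0.22, interval -0.80 to 0.22, limma adjusted p = 0.611), over-expression minus silenced -0.41 (SE 0.22, interval -0.92 to 0.10, adjusted p = 0.519) and silenced minus wild type 0.12 (SE 0.24, interval -0.44 to 0.68, adjusted p = 0.835). With 1 array left out, over-expression minus wild type ran from -0.47 without over-expression replicate 2 to -0.11 without over-expression replicate 3, and over-expression minus silenced from -0.59 to -0.23 without the same arrays. The r of H6L with the reporter median was -0.038 over 7 arrays (exact permutation p = 0.93) and 0.069 after group means were taken off.

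Rac13 (locus LOC107924928) read 4.10, 3.77 and 4.05 in over-expression ovules, 4.01 and 4.01 in silenced ovules, and 3.81 and 4.01 in wild-type ovules. All 7 arrays were below the 10th percentile and within -0.15 to 0.14 log2 units of the reporter median. The means of silenced (4.01, SD 0), over-expression (3.97 ± 0.18) and wild type (3.91 ± 0.15) overlapped throughout. Silenced minus wild type was 0.10 (SE 0.15, interval -0.25 to 0.46, limma adjusted p = 0.765), over-expression minus wild type 0.06 (SE 0.14, interval -0.26 to 0.39, adjusted p = 0.867), and over-expression minus silenced -0.04 (interval -0.37 to 0.28, adjusted p = 0.943).

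The Rac13 value was the same to every deposited digit on both silenced arrays and on wild-type replicate 2. At the steadier Pel set, silenced replicate 2 and over-expression replicate 2 shared a value in the same way. Such repeats were common at low levels. Of the lowest 25% of tested probe sets by mean level, 61.1% had an identical value on at least 2 arrays, against 18.5% of the highest 25% and 34.3% of all. On the silenced pair, 3.47% of all probe sets had equal values, so an SD of 0 there is not a measure of biological spread.

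**Figure D3:**
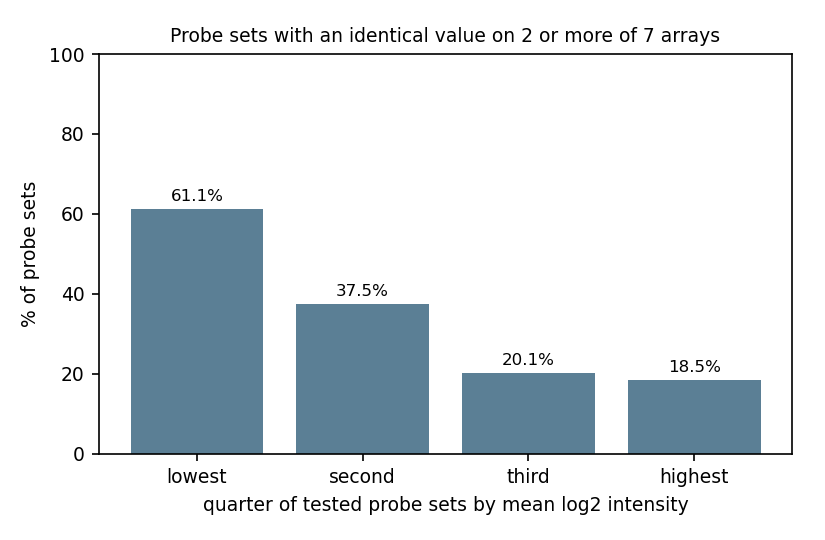
Percentage of tested probe sets (vertical axis, from 0) with an identical deposited value on 2 or more of the 7 arrays, in classes of 25% of the probe sets by mean log2 intensity. The share is 61.1% in the lowest class, which holds 5 of the 7 fibre-stage probe sets, and 18.5% in the highest.

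Taking the 7 probe sets together, 0 passed limma at an adjusted p under 0.05 in any of the 3 comparisons, and 0 had an unadjusted p under 0.05. Over all probe sets, 0% were called for silenced against wild type (14.5% at an unadjusted p under 0.05), 0.00417% for over-expression against wild type (10.4% unadjusted) and 0.0209% for over-expression against silenced (12.1% unadjusted). Member adjusted p ranged from 0.440 to 0.835, from 0.507 to 0.937 and from 0.519 to 0.979 in these comparisons. Both comparisons against wild type share the wild-type arrays.

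For silenced against wild type the arrays did not overlap at 3 of the 7 probe sets, beside 45.4% of all probe sets. Both CelA1 sets were higher in silenced ovules, beside 23.6% of all, and E6 was lower, beside 21.8% of all. The arrays overlapped at all 7 for over-expression against wild type and against silenced, where 24.3% and 33.9% of all probe sets did not overlap. Values above 0 numbered 5, 4 and 5 of 7 in the 3 comparisons, beside 52.3%, 53.5% and 52.9% of all, and the median differences were 0.12, 0.06 and 0.11, beside 0.02, 0.02 and 0.01.

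**Figure D4:**
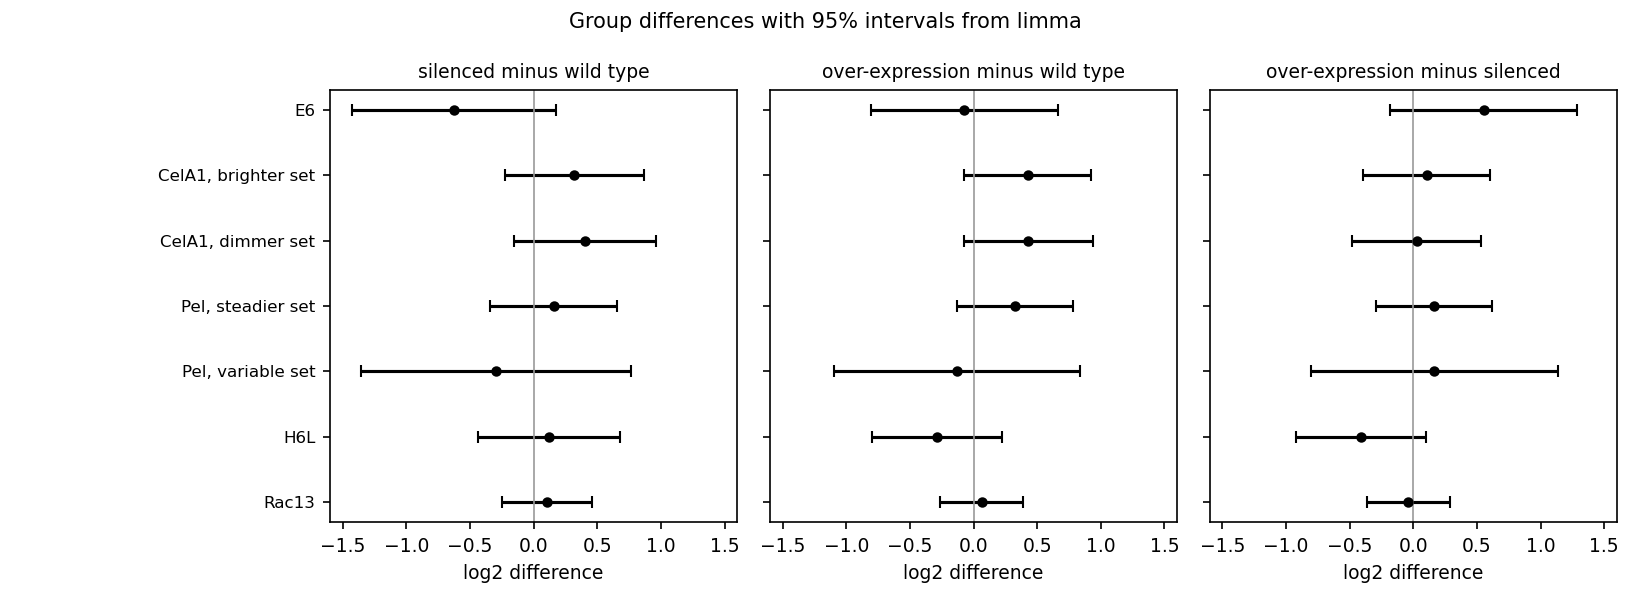
Log2 difference (horizontal axis) of each probe set for silenced minus wild type, over-expression minus wild type and over-expression minus silenced, with 95% intervals from limma. All 21 intervals include 0, and the widest belong to the more variable Pel set and E6.

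The replicates of 6 of these probe sets were more spread than most. The pooled within-group SD was 0.43 for E6, 0.27 and 0.28 for CelA1, 0.24 and 0.58 for Pel and 0.28 for H6L, between the 75.9th and the 97.0th percentile of all tested probe sets, whose median was 0.17. Rac13, at 0.14, was at the 40.3th. Among the arrays, wild-type replicate 1 gave the lowest value at 4 of the 7 probe sets and over-expression replicate 1 the highest at 4, beside 22.3% and 17.8% of all tested probe sets.

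By pattern over the 7 arrays, the named probe sets most like E6 were the expansin probe set listed as EXP1 and EXPA1 (r = 0.938, rho = 0.893), of a family that loosens walls, ANT1 (r = 0.897) and RL37a, a ribosomal protein gene (r = 0.896). Those most like the brighter CelA1 set were ACS, an ACC synthase of ethylene synthesis (r = 0.989), PEPC1, a phosphoenolpyruvate carboxylase (r = 0.976), and Pel at its steadier set (r = 0.971). ACS read 4.78 to 5.62 log2 units. ACS was also first for the dimmer CelA1 set (r = 0.974), before RCA1 (r = 0.941) and the kinesin KCH1 (r = 0.926).

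The steadier Pel set was most like PEPC1 (r = 0.974), CelA1 at its brighter set (r = 0.971) and ACS (r = 0.967), although its rho was 0.541 with CelA1 and 0.396 with ACS. The other Pel set was most like DET2 of brassinosteroid synthesis (r = 0.903), the fasciclin-like gene FLA13 (r = 0.902) and AOX1 (r = 0.899). H6L was most like CNGC2 (r = 0.934), ERF8 (r = 0.861) and Aux3 (r = 0.841). Rac13 was most like the beta-tubulin gene BTub3 (r = 0.937), the vicilin gene vicB_At (r = 0.937) and the MYB gene myb109 (r = 0.914). These r values are the highest of 322 or 323 searched per probe set, over arrays that share their processing, and are a description only.

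Related genes of the same steps were also read, and limma called 0 of their probe sets in either direction in any comparison. In cellulose synthesis (6 probe sets of 4 genes, both CelA1 sets included), Sus1, a sucrose synthase that supplies the substrate of cellulose, read 13.27 to 13.64, above the 99.6th percentile on all arrays. Its means were 13.40 ± 0.12 in over-expression, 13.57 ± 0.10 in silenced and 13.50 ± 0.16 in wild-type ovules. The sucrose synthase gene susC lay between the 46.0th and the 59.3th percentile, and SusA1 read 7.32 to 8.85 at one probe set and 4.76 to 5.31, near the floor, at the other. The list's median was 0.23 for silenced minus wild type, 0.26 for over-expression minus wild type and -0.05 for over-expression minus silenced.

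Among pectin enzymes (3 probe sets of 2 genes, both Pel sets included), the polygalacturonase gene PG, whose product also cuts pectin, read 3.67 to 4.46. All 3 were thus near the floor on every array, and the medians were 0.16, -0.10 and 0.17 in the same order. Of the 3 Rac genes, Rac9 read 3.34 to 3.72, on or near the floor, and the probe set listed as Rac2, Rac6 and RacA read 10.55 to 10.95, between the 86.3th and the 90.5th percentile. Their medians were 0.16, 0.06 and -0.04. Rac9 had the smallest adjusted p of the 3 for silenced minus wild type (0.24, SE 0.12, limma adjusted p = 0.404). H6L was the only proline-rich wall protein of the list with a named probe set.

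The fibre cytoskeleton list, actins, tubulins and annexins that shape the growing cell, had 15 probe sets of 13 genes with medians of -0.00096, 0.06 and 0.03. Of these, 4 were near or on the floor on all arrays and the highest mean was 14.20. The annexin gene AnnGh1 averaged 12.95 ± 0.14 in over-expression, 13.07 ± 0.15 in silenced and 13.18 ± 0.04 in wild-type ovules, and over-expression minus wild type was -0.24 (SE 0.13, limma adjusted p = 0.526). The smallest adjusted p belonged to the beta-tubulin probe set listed as BTub1 and BTub2, at 1.03 for silenced minus wild type (SE 0.21, limma adjusted p = 0.158), with means of 4.60 ± 0.10 in silenced and 3.57 ± 0.41 in wild-type ovules. Both means lay below the 25th percentile, and the wild-type mean lay within the range of the 5th percentile over arrays, 3.50 to 3.67.

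Markers of fibre initials and of maturing seed were given the same reading. None of the 4 fibre-initial probe sets, myb109, HOX3, GHTTG1 and EXPA1, was near the floor on all arrays, with means between 6.42 and 10.40, and their medians were -0.35 for silenced minus wild type, 0.25 for over-expression minus wild type and 0.49 for over-expression minus silenced. In these comparisons limma called 0 of the 4, with smallest adjusted p of 0.277, 0.616 and 0.314. E6 lay below wild type in silenced ovules as 3 of these 4 did, where 52.3% of all probe sets were above 0. For over-expression minus wild type E6 was -0.07, while 3 of the 4 were above 0, beside 53.5% of all. For over-expression minus silenced E6 was 0.55, and all 4 were above 0, beside 52.9% of all. Both comparisons with silenced ovules share the silenced arrays, so their directions are not independent. The part of fibre initials in the E6 values was not tested. Of 7 maturing-seed probe sets 4 were near or on the floor on all arrays, and the medians were 0.20, 0.17 and -0.0091.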

How the data were processed

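Log2 intensities per probe set were deposited by the authors for 7 arrays. R 2.7.1, RMA and limma are named in the submitters' processing notes, with no role or order. RMA normally compresses low signals and, by equalising array distributions, removes global shifts. Of 24132 probe sets, 103 AFFX and 52 RPTR controls were set apart and 23977 tested.

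limma 3.58.1 in R 4.3.3 was run on the whole table of 7 arrays, each group having 1 mean, followed by eBayes (4 residual and 3.01 prior degrees of freedom), with two-sided p-values adjusted by Benjamini-Hochberg over all tested probe sets and a threshold of 0.05. The fit was tested on simulated data. The number of arrays limits the precision.

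Names came from the platform annotation and the RefSeq gene table of Gossypium_hirsutum_v2.1: 697 probe sets had 1 gene, all matched, and 324 had a name beyond a locus number, 46 had several genes and 23234 none listed. No coordinates are given because the files name no build, and no probe set was named GhHD-1, whose level is not reported here. Members, lists (filled by symbol after the annotation was read) and tests were chosen with earlier results of these data known. The rule for named genes was all members, the 3 named probe sets most like each by Pearson's r, and up to 3 genes per list by p. Alternatives covered the block, the groups fitted, the prior, array weights, normalization, centring, dim probe sets, the threshold and each array left out. Another background correction could not be tried on summarised values.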

Additional observations from a re-analysis of the deposited data

Results flagged for a closer look

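None of the 7 fibre-stage probe sets moved in opposite directions on all silenced and all over-expression arrays, and the groups are too small for a test of single outlying arrays. Signals outside the cotton genes stood apart at a pair of reporter controls. RPTR-Ghi-A06498-1_at read 4.39 to 4.66 on the over-expression arrays, 9.99 and 10.15 on the silenced arrays and 4.08 and 4.59 on the wild-type arrays, and silenced minus wild type was 5.73 log2 units. RPTR-Ghi-U57609-2_s_at read 5.91, 8.59 and 8.81 on the over-expression arrays, 9.73 and 9.84 on the silenced arrays, and 5.09 and 11.88 on the wild-type arrays, a gap of 6.79 log2 units within the wild type. The cause was not tested.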

How the results depend on the processing

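The count of member probe sets called was 0 in each comparison under all alternatives run (with the brighter probe sets alone, E6 was the one member left), and the smallest adjusted p of a member was 0.0984, for E6 in over-expression minus silenced with array weights. Of 336 member differences under 16 alternatives, 313 kept their direction, 22 turned and 1 went to 0, the cause of which was not tested. Many of the 313 could not turn, so their number is not a measure of stability. A changed prior or a fit of only the groups compared leaves the difference itself unchanged. So does leaving out an array of the group not compared. None of those that turned exceeded 0.30 in size at first. With array weights, over-expression minus wild type was 0.086 for E6 and 0.0073 for the more variable Pel set, and over-expression minus silenced was 0.0064 for Rac13. Over-expression minus wild type of Rac13 was -0.025 after a further quantile normalization and -0.0099 after cyclic loess. Reporter control centring, added after seeing the data, gave silenced minus wild type of -0.11 for the steadier Pel set, -0.14 for H6L and -0.16 for Rac13, and for Rac13 -0.16 in over-expression minus wild type and 0.0019 in over-expression minus silenced.

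Leaving out 1 array at a time gave these ranges where a direction turned. Silenced minus wild type ranged from -0.057 to 0.37 for the steadier Pel set, -0.996 to 0.40 for the more variable Pel set and -0.035 to 0.28 for H6L. Over-expression minus wild type ranged from -0.38 to 0.24 for E6, -0.83 to 0.57 for the more variable Pel set and -0.040 to 0.17 for Rac13. Over-expression minus silenced ranged from -0.072 to 0.22 for the brighter CelA1 set, -0.13 to 0.16 for the dimmer CelA1 set and -0.10 to 0.060 for Rac13. Where no direction turned, silenced minus wild type ranged from -0.93 to -0.32 for E6, and over-expression minus silenced from 0.40 to 0.85 for E6 and from -0.59 to -0.23 for H6L. A group left with 1 array is assumed to vary like the others.

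The 5 probe sets near the floor were 1, Rac13, with the 10th percentile as bound, and 5 under the other bounds and with any array left out. With the 95th percentile of the reporter controls as bound, the brighter CelA1 set was above it only on wild-type replicate 1 and over-expression replicate 1. It was not counted because all arrays must lie below. That bound ran from 5.85 to 8.68 and was highest on the silenced arrays. Calls over all probe sets moved more. Silenced against wild type had 0 calls, 7 with a robust prior, 1 with reporter control centring and 0 to 73 with an array left out, 73 when wild-type replicate 1 was dropped and 35 when replicate 2 was. Over-expression against wild type had 1 call, 0 at an adjusted p of 0.01, with the block, with only these groups fitted, with array weights, cyclic loess, brighter probe sets or reporter control centring, and 0 to 475 with an array left out, 475 without wild-type replicate 2. Over-expression against silenced had 5 calls, 0 at an adjusted p of 0.01 and with the block, 238 with only these groups, 1209 with array weights, 9 with median centring, 3 with brighter probe sets or reporter control centring, and 0 to 238 with an array left out: 238 without either wild-type array, 37 without over-expression replicate 2 and 0 without any other. Replicate 1 minus replicate 2 correlated across probe sets at 0.101 between over-expression and silenced. The correlation was -0.270 between over-expression and wild type and 0.098 between silenced and wild type. Whether the replicate numbers pair the arrays was not tested and cannot be decided from these values. With the replicate block 0 probe sets were called in each comparison. The block takes up residual degrees of freedom, and replicate 3 exists only in over-expression, so that count does not bear on pairing.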

Other observations

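The gap between both CelA1 probe sets was not unusual for this array. Of 52 named genes with several probe sets, 24 had a gap of mean levels at least as wide as the 2.51 log2 units of CelA1, the median gap was 2.41, and Pel had 0.14. In 10 of the 52, CelA1 and SusA1 among them, one probe set was near or on the floor on all arrays and another above the 25th percentile on all arrays. Over the 7 arrays the 115 same-gene pairs had a median r of 0.583, with 4 pairs, CelA1 included, at or above 0.967 and 42 at or below the 0.437 of Pel. Pairs of a gene share probe sets and arrays, so these are descriptions. Whether the CelA1 transcript was present could thus not be read from one probe set alone.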
